A study of Mus musculus with 12 samples.

Results

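Histone acetylation was examined at the mouse genes whose symbols start with Zfp followed by a digit and that lie on chromosome 1, chromosome 2 and chromosome 3 up to position 122275556 (genome build GRCm38). This is the stretch covered by all 4 peak lists for acetylation of histone H3 at lysine 27 (H3K27ac). There are 36 such protein-coding genes among 3789 coding genes of the stretch. For acetylation at lysines 9 and 14 (H3K9/14ac) the common stretch ends on chromosome 2 at position 167064301 and holds 18 of the 36 genes among 2825. The genes were chosen by symbol and position alone, and not by their acetylation.

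The cells were fibro-adipogenic progenitors (FAPs), the mesenchymal progenitors of skeletal muscle, sorted by flow cytometry with a gate not given in the sources used here. All mice were C57Bl6 mdx, a strain without dystrophin, and their age and the stage of the muscle disease cannot be told apart. The 4 groups were young (1.5 months) or old (12 months) mice given either saline vehicle or the histone deacetylase inhibitor trichostatin A (TSA, 0.6 mg/kg per day in saline) by daily intraperitoneal injection for 15 days before isolation. Each mark had 1 library per group, so no test between groups was possible, and every difference is one between single libraries.

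Zfp genes encode proteins with C2H2 zinc fingers, small folds held by a zinc ion that are used mostly to bind DNA. Many carry a KRAB domain, which recruits the corepressor Trim28 and, through it, histone methyltransferases and deacetylases, and these proteins silence transposable elements and some genes. KRAB genes often lie in tandem clusters that grew by duplication, while other Zfp genes are single, conserved transcription factors. Acetylation at H3K27 marks active promoters and enhancers, and acetylation at H3K9 and H3K14 lies mostly at active promoters.

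A gene was counted as marked in a library when a deposited peak overlapped its body or the 2000 bp on either side by 1 bp or more. The strength of the mark is the number of tags (sequenced fragments counted by the authors) in those peaks, per kb of this window where genes are compared. In the H3K27ac stretch the libraries held between 5727 and 7891 peaks with 952786 to 1659160 tags, fewest in old vehicle and most in young vehicle. In the H3K9/14ac stretch they held between 2474 and 3336 peaks with 426273 to 631446 tags, fewest in the library labelled old TSA and most in young TSA. In sorted bulk cells, a mark on fewer cells and less mark per cell cannot be told apart. All 7 FAP marker genes in the stretch (such as Prrx1 and Cd34) were marked in each of the 8 libraries, with 10084 H3K27ac tags in old vehicle, the lowest sum, and 18851 in young vehicle, the highest. Of the markers of other cells, the 3 endothelial genes held 2843 (old vehicle) to 7032 (young vehicle) H3K27ac tags and were marked in every library. Of the lymphocyte genes, Cd2 was marked with H3K27ac in every library (357, 344, 356 and 529 tags in young vehicle, young TSA, old vehicle and old TSA) and Cd48 in none. Ptprc, of all leukocytes, had no peak of either mark. The macrophage gene Spi1 held H3K27ac in both old libraries only, but held H3K9/14ac in young TSA (166 tags), old vehicle (73) and old TSA (54). The muscle fibre list had H3K27ac at 1 of its 7 genes (Casq1) in every library. Myog, of the muscle lineage, held H3K27ac in both young libraries and in neither old one. The part of other cells in the values below was not tested.

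The promoters show how differently the Zfp genes are built. RefSeq's promoter table (GRCm38.p6, 250 bases before to 50 after each annotated start) holds a sequence for 34 of the 36 genes. Zfp335, Zfp281 and Zfp697 are shown as examples of promoters with many CpG dinucleotides, which are in capitals. They have no 36-base stretch that also occurs in a promoter elsewhere. The first was among the most acetylated Zfp genes, the second had far fewer H3K27ac tags in 1 library than in the others, and the third had no H3K27ac peak in that library. Zfp971, Zfp965 and Zfp966 are copies from the end of chromosome 2. In Zfp971 and Zfp965 capitals mark the 9 of 300 bases that differ between them, compared position by position. The promoter of Zfp966 is identical to that of Zfp967, with 0 of 300 bases different. Zfp965 and Zfp966 are shown for this comparison and were chosen after their values were seen. The 6 sequences come from chr2:164911701-164912000 (Zfp335, minus strand), chr1:136624651-136624950 (Zfp281, plus), chr3:98382231-98382530 (Zfp697, plus), chr2:178023034-178023333 (Zfp971, plus), chr2:175469775-175470074 (Zfp965, plus) and chr2:175931051-175931350 (Zfp966, minus).
Zfp335: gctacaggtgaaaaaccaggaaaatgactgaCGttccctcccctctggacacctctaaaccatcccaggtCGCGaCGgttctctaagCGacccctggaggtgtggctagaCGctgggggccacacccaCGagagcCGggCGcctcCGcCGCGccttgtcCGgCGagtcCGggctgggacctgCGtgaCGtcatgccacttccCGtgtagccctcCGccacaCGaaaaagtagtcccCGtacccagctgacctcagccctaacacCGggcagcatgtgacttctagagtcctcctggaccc
Zfp281: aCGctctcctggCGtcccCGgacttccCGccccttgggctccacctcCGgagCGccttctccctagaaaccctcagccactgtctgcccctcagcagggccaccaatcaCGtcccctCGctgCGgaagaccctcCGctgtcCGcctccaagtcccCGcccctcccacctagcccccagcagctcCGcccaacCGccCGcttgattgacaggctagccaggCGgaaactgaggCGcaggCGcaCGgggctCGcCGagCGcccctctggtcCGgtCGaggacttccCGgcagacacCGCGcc
Zfp697: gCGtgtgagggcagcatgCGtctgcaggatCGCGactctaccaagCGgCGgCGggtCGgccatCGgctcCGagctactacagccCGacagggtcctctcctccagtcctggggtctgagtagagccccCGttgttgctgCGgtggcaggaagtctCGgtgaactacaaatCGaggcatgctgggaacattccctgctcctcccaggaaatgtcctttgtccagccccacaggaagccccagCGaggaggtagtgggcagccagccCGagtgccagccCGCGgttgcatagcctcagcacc
Zfp971: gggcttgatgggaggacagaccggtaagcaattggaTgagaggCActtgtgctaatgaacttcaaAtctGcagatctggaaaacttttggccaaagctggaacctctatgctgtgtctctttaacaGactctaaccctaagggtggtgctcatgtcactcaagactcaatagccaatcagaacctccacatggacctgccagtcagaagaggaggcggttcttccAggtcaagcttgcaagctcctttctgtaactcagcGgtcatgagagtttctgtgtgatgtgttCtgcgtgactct
Zfp965: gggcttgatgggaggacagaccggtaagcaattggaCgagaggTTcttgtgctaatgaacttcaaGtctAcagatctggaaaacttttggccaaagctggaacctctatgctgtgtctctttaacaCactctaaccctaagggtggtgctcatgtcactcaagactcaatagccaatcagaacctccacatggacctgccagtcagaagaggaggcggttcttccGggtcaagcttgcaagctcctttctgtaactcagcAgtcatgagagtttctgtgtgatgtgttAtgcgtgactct
Zfp966: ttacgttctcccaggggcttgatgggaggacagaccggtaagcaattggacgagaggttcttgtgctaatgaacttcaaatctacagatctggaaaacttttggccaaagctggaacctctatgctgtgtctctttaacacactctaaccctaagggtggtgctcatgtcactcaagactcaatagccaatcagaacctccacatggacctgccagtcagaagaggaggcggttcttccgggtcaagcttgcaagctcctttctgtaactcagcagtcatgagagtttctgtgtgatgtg

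By H3K27ac, the Zfp genes fell into 18 marked in every list, 12 marked in none and 6 marked in some. Marked were 24 of 36 genes (young vehicle), 23 (young TSA), 18 (old vehicle) and 23 (old TSA). Among all coding genes of the stretch the marked share was 55.8% (young vehicle), 54.1% (young TSA), 51.1% (old vehicle) and 56.1% (old TSA). The Zfp genes stood at 66.7%, 63.9%, 50% and 63.9%, and the exact binomial 95% intervals of these shares include the all-gene share in all 4 libraries. Such intervals take the genes as independent, which duplicated genes are not, and do not cover differences between libraries. Of all genes, 50.2% were marked in every list and 42.1% in none. The plot of tags per kb by library shows these classes along the chromosomes.

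**Figure D1:**
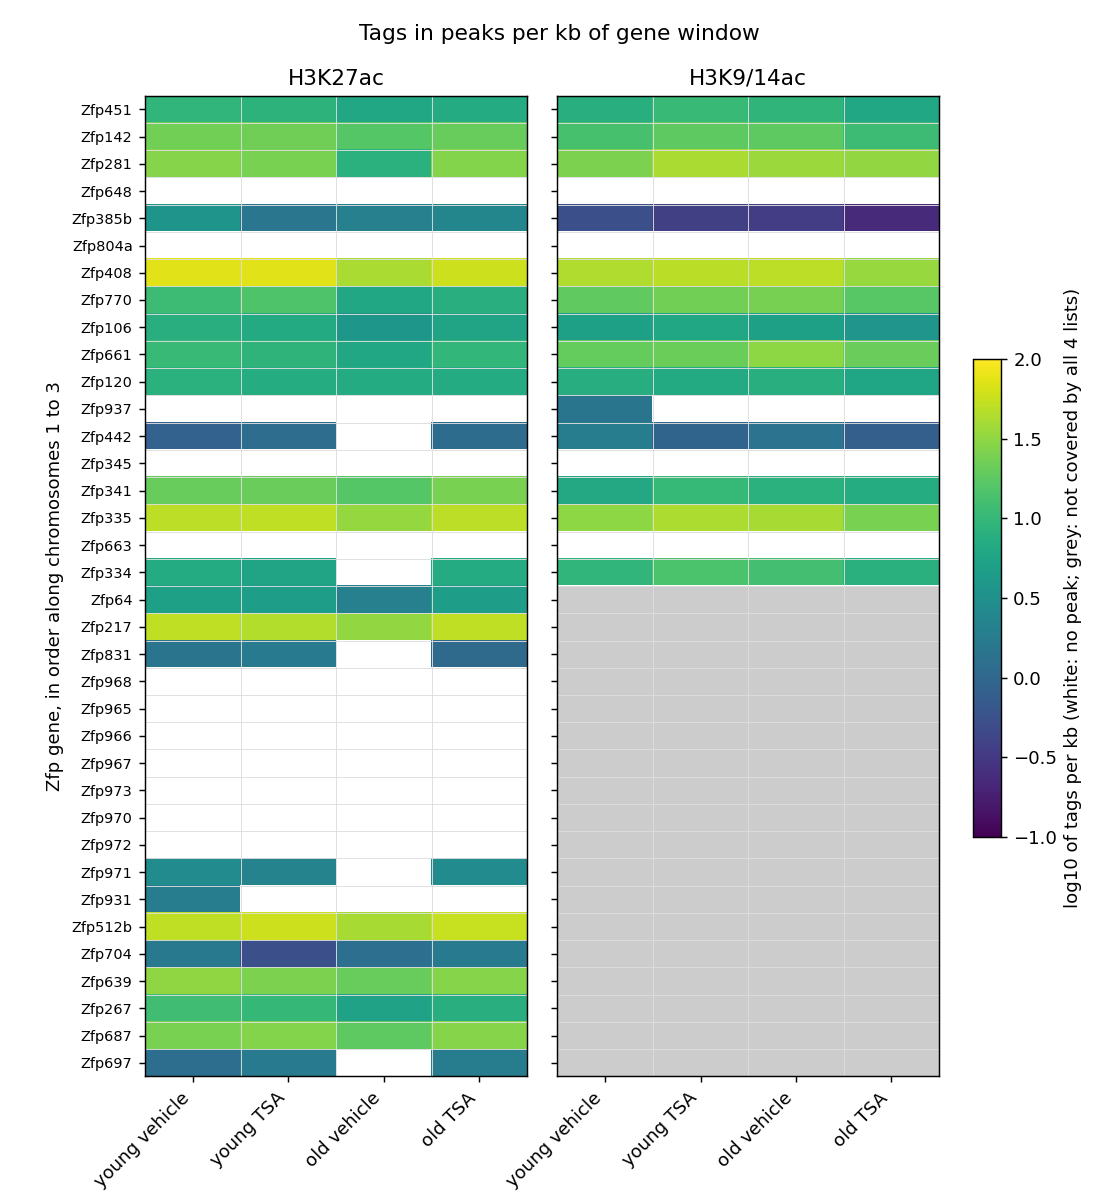
Tags in peaks per kb of gene window (log10 colour scale) for the 36 Zfp genes in order along chromosomes 1 to 3 (rows) in the 4 H3K27ac and 4 H3K9/14ac libraries (columns). White marks a window without a peak and grey a gene outside the stretch of the 4 H3K9/14ac lists; 12 rows are white throughout for H3K27ac, and 5 further rows are white in old vehicle alone.

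H3K9/14ac gave a like division where both marks could be read. Of 18 Zfp genes, 14 were marked in young vehicle and 13 in each of the other libraries, beside 57.0% of all genes (young vehicle), 61.9% (young TSA), 60.4% (old vehicle) and 59.0% (old TSA). A peak in all 4 lists was found at 13 genes (55.1% of all genes) and in none at 4 genes (36.1%). Of these 18 genes, 11 carried both marks in every list and 4 carried neither mark in any: Zfp648, Zfp804a (whose human counterpart is associated with schizophrenia), Zfp345 and Zfp663. Joint counts of the marks were not made over all coding genes, so whether this agreement is particular to Zfp genes was not tested. Zfp442 and Zfp334 had H3K9/14ac in every list but H3K27ac in only some. Zfp937 had a single H3K9/14ac peak of 48 tags over its start in young vehicle and no other peak of either mark.

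The most acetylated Zfp genes per kb were mostly single genes away from other Zfp genes. Zfp408, a gene with a part in retinal vessel development, had 832 H3K27ac tags (young vehicle), 821 (young TSA), 470 (old vehicle) and 671 (old TSA), a mean of 61.8 tags per kb. Its 1 peak in each library also covers the start of a neighbouring gene that runs the other way, 327 bp away. Zfp512b followed at 52.0 tags per kb, with 764, 887, 599 and 840 tags in the same order. Most of these lay in a peak over the start of the next gene, Uckl1, with 574, 688, 460 and 573 tags, so that Zfp512b's own start region held the smaller part. Zfp335, a component of histone methyltransferase complexes needed for brain development, had 1247, 1289, 825 and 1228 tags in 1 peak per library (46.4 tags per kb) over the start printed above. That peak also covers the start of the non-coding gene Zfp335os, 317 bp away.

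Zfp217, which acts with the CoREST corepressor, had its H3K27ac spread over many peaks. There were 10, 5, 7 and 10 H3K27ac peaks in young vehicle, young TSA, old vehicle and old TSA, with 2442, 2106, 1541 and 2449 tags (45.4 tags per kb). These peaks lay in several groups along the gene, and 1 beyond its upper end reached out of the window. The remaining 6 of the 10 most acetylated Zfp genes ranged from 26.5 tags per kb at Zfp639 to 10.1 at Zfp770. Zfp639 had 466, 369, 291 and 420 tags, and Zfp687, mutated in a form of Paget disease of bone, had 626, 710, 453 and 727. Zfp341, an activator of Stat3 transcription, had 785, 815, 632 and 978 tags. Zfp142 had 595, 580, 415 and 518 tags in a peak shared with the start of the mitochondrial chaperone gene Bcs1l, 261 bp away. Less strongly marked were Zfp106, an RNA-binding protein gene, with 471, 415, 235 and 349 tags, and Zfp661, with 174, 149, 100 and 160. Each list has 1 peak in the window of Zfp661 that covers the start of the ribosomal protein gene Mrps5. Old vehicle was lowest at each of these genes, as it was in total tags.

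At a few of these genes H3K27ac also lay away from the annotated starts. For H3K9/14ac, between 99.5% and 100% of the tags in peaks of Zfp genes with an annotated start belonged to peaks within 2000 bp of an own start. For H3K27ac the share at the same 18 genes was 81.7% (young vehicle), 90.6% (young TSA), 82.3% (old vehicle) and 85.5% (old TSA). Over the longer H3K27ac stretch, which adds genes such as Zfp217 and Zfp512b, it was 75.7%, 83.4%, 77.2% and 77.9%. Within the 18 genes, H3K27ac peaks farther than 2000 bp from an own start were found at Zfp385b and Zfp106 alone. These shares were not worked out over all coding genes. Per kb of window Zfp408 was highest of the 18 genes in H3K9/14ac too, at a mean of 44.3, with 498, 551, 568 and 386 tags. Zfp335 came next at 35.1, with 765, 1066, 1014 and 619 tags. Among the 18 Zfp genes that lie beyond the H3K9/14ac stretch, the 3 longer lists held a peak at 11 genes (young TSA), 10 genes (old vehicle) and 9 genes (old TSA). Of the 964 coding genes there, 63.3%, 61.3% and 58.7% had one.

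H3K27ac was missing from the old vehicle list alone at 5 Zfp genes: Zfp442, Zfp334, Zfp831, Zfp971 and Zfp697. That is 13.9% of the 36 (exact binomial 95% interval 4.67 to 29.5), beside 2.82% of all coding genes with the same pattern. Zfp931 was marked with H3K27ac in young vehicle only, with 30 tags. In H3K9/14ac Zfp931 had 36 tags in young TSA, no peak in either old library and no value in young vehicle. By pairs of lists, 6 Zfp genes had a peak in young vehicle and none in old vehicle (5.04% of all genes), and 5 had one in old TSA and none in old vehicle (5.15%). No Zfp gene with H3K27ac in old vehicle lacked it in another library. Nearly all coding genes were alike in this, with 1938 marked in old vehicle and 1903 in all 4 lists.

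Zfp697, an RNA-binding regulator of muscle remodelling, had 66 H3K27ac tags (young vehicle), 95 (young TSA), 0 (old vehicle) and 99 (old TSA). The peaks lie over the start printed above, and also cover a start of the non-coding gene Gm52610. Zfp334 had 128, 103, 0 and 125 tags in a peak over its start. Zfp831 had 165, 204, 0 and 126 tags in a peak inside the gene (chr2:174672812-174674011 in young vehicle), 36821 bp from its upper end. Zfp442 had 46, 62, 0 and 61 tags at its start, and Zfp971 46, 36, 0 and 47 just after its start. The 5 genes were picked by this pattern, so the absence in old vehicle is set by the choice.

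H3K9/14ac was present at these 5 genes in the old vehicle library of that mark. That list held 500 H3K9/14ac tags at Zfp697, beside 351 in young TSA and 302 in old TSA. At Zfp334 the H3K9/14ac tags were 171 (young vehicle), 256 (young TSA), 231 (old vehicle) and 143 (old TSA), and at Zfp442 100, 49, 74 and 43. Zfp831 had 142 such tags in old vehicle, between 320 in young TSA and 88 in old TSA. Zfp971 had 88 in young TSA, 100 in old vehicle and no peak in old TSA. Zfp697, Zfp831 and Zfp971 lie beyond the end of the young vehicle H3K9/14ac list and have no value there.

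The weaker of these absences are near the limit of the list. Scaled to old vehicle by the ratio of regions marked in every list, the young vehicle and old TSA tags would give 83.6 and 88.1 tags at Zfp334, 107.8 and 88.8 at Zfp831 and 43.1 and 69.8 at Zfp697. At Zfp971 they would give 30.1 and 33.1, and at Zfp442 30.1 and 43.0. The smallest peak of the old vehicle list has 23 tags, and its 5th percentile is 36. Lists of equal length, which keep the peaks with the most tags, were an alternative added after seeing the data. There 3 genes kept the pattern (Zfp334, Zfp831 and Zfp697). That is 8.33% of the Zfp genes, with an exact binomial interval of 1.75 to 22.5 that includes the 1.95% of all genes. With 10000 bp either side 4 of 36 genes showed it (all genes 2.45%), and with windows around the starts alone 4 of 34 (all genes 3.1%). In the upper 50% of peaks by tags, Zfp831 kept it and Zfp661 joined, which is 5.56% of the Zfp genes beside 3.96% of all genes. With an overlap of 500 bp or more Zfp831 and Zfp697 kept it and Zfp770 joined, which is 8.33% beside 4.43%. The exact binomial intervals of these last shares, 0.68 to 18.7 and 1.75 to 22.5, also include the all-gene share. The Zfp share was thus not apart from that of all genes at every setting.

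To compare tags between libraries, relative tags were used: the log2 ratio of a gene's tags, less the median of that ratio among regions found in all 4 lists of the mark. They are defined only where both libraries have a peak, and the error given is the standard error from counting alone. The sums run over peaks called in each library by itself, so they move with how much of a gene was called, and tags outside called peaks are not known. The young TSA and old TSA comparisons use separate vehicle libraries, but each vehicle library also enters the age comparison, so the 4 comparisons of a mark share libraries. A difference of 2-fold (1 on the log2 scale) was used to single out genes.

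With TSA in young mice, H3K27ac at most Zfp genes differed little from vehicle, and 2 genes stood apart, both lower. Of 23 genes marked in both libraries, 12 had more relative tags with TSA (52.2%), beside 51.6% of all genes, but scaling by total tags in peaks, which adds 0.15 to every value, gave 78.3% (all genes 72.5%). The median was 0.02, and 0.01 over all genes. In these sums Zfp704 and Zfp385b were at least 2-fold lower, and no Zfp gene was 2-fold higher, beside 3.0% of all genes past 2-fold in either direction. The highest were Zfp697 at 0.65 ± 0.23, Zfp442 at 0.55 ± 0.28 and Zfp770 at 0.51 ± 0.16, and after the 2 genes past 2-fold the lowest was Zfp971 at -0.23 ± 0.32.

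Zfp704 (chromosome 3, 9427010 to 9610085) had 305 tags (young vehicle), 100 (young TSA), 234 (old vehicle) and 312 (old TSA). Young TSA was the low library. Relative tags were -1.49 ± 0.17 with TSA in young, and 1.61 ± 0.17 in old against young TSA. In the other 3 libraries, peaks at 9499220 to 9501483 on chromosome 3, which begin 72210 bp inside the gene from its lower end, came in neighbouring pieces. Young TSA had only the last of these, at 9500951 to 9501515, with 100 tags, where young vehicle had 114. At this piece relative tags were -0.07 ± 0.20, so the difference lay in the neighbouring pieces, of 112 and 79 tags in young vehicle, that were not called in young TSA. The called length at Zfp704 was 1618 bp (young vehicle), 565 (young TSA), 1669 (old vehicle) and 1900 (old TSA), with 188.5, 177.0, 140.2 and 164.2 tags per kb of peak. The promoter table used here holds no start for this gene. Its H3K9/14ac, read in 3 lists, was 395 tags (young TSA), 325 (old vehicle) and 219 (old TSA).

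Zfp385b, a zinc finger gene linked to p53-dependent apoptosis, covers chromosome 2 from 77410622 to 77817706. Its H3K27ac tags were 1461 (young vehicle), 613 (young TSA), 836 (old vehicle) and 968 (old TSA), in 8, 5, 7 and 6 peaks. Young vehicle was the high library, and young TSA the low one, with relative tags of -1.13 ± 0.07 between them, but -0.83 with windows of 2000 bp either side of the annotated start and -0.98 with scaling by total tags, both below 2-fold. The called length was 8874 bp (young vehicle), 3430 (young TSA), 5096 (old vehicle) and 5678 (old TSA), while tags per kb of peak were 164.6, 178.7, 164.1 and 170.5. Old TSA stood at -0.29 ± 0.07 against old vehicle and at 0.62 ± 0.07 against young TSA. The peaks formed groups at several places in the gene. The group nearest the lower end held 409 tags in young vehicle, and 117 and 75 tags in 2 pieces in young TSA. A peak of 207 tags in young vehicle at 77687480 to 77688715 had no counterpart in young TSA but had one in both old libraries. H3K9/14ac at Zfp385b was 224, 151, 143 and 97 tags, with relative tags of -0.97 ± 0.15 with TSA in young and -0.99 ± 0.15 in old against young vehicle. Scaling by total tags took these past 2-fold, to -1.05 and -1.075, and with lists of equal length the second was -1.58.

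**Figure D2:**
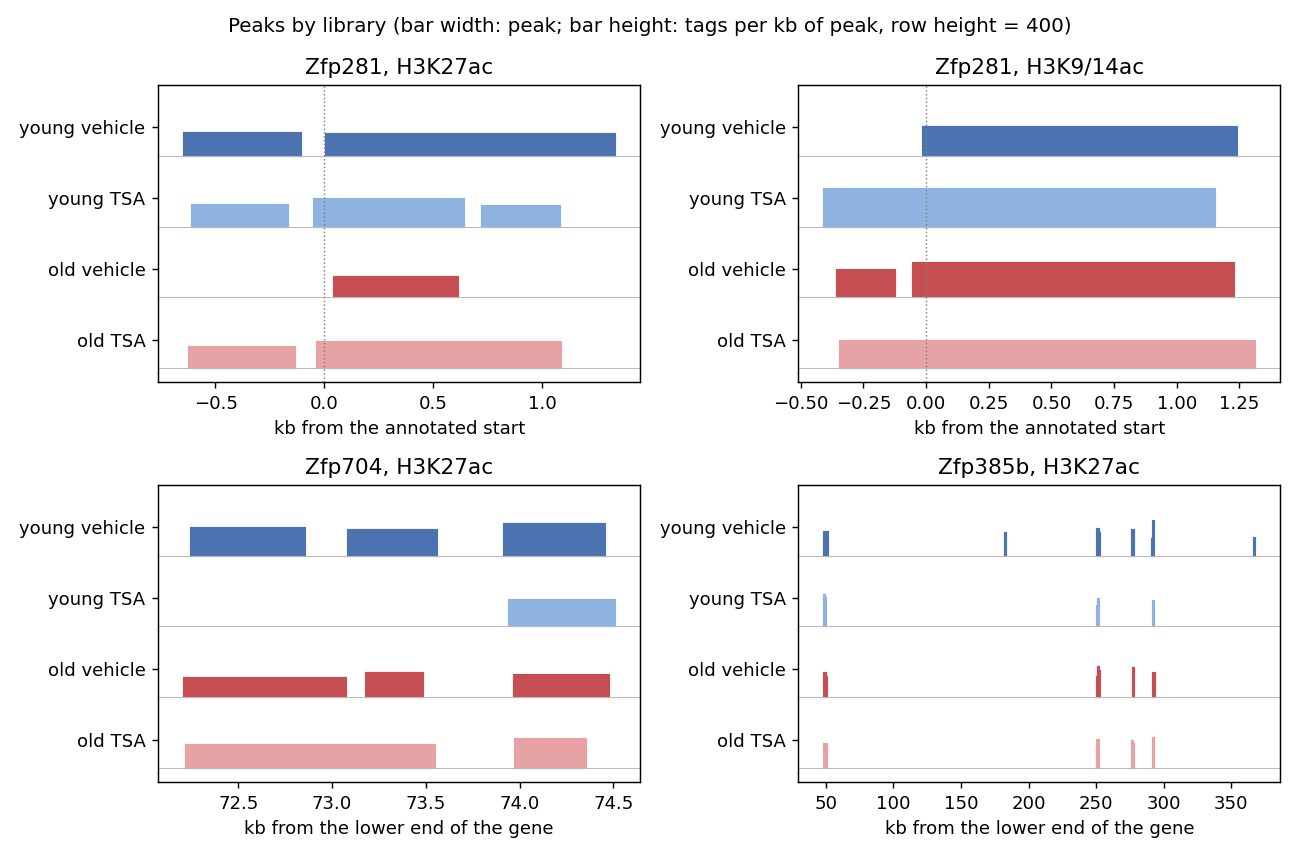
Peaks at Zfp281 (H3K27ac and H3K9/14ac), Zfp704 and Zfp385b (H3K27ac) in the 4 libraries (rows); the x axis is the distance in kb from the annotated start (Zfp281, dotted line) or from the lower end of the gene, bar width is the peak and bar height its tags per kb, with 400 as the row height. At Zfp281 old vehicle has 1 short H3K27ac peak of 78 tags but 336 H3K9/14ac tags, and at Zfp704 young TSA keeps only the last peak (1 peak of 34 tags in old TSA near the upper end of Zfp704 is not drawn).

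With TSA in old mice, 1 gene stood far from the rest. Zfp281, a transcription factor that helps cells leave pluripotency, had 272 H3K27ac tags (young vehicle), 238 (young TSA), 78 (old vehicle) and 263 (old TSA). Old vehicle was the only low library. Relative tags were 1.25 ± 0.19 with TSA in old and -1.19 ± 0.18 in old against young vehicle, both resting on the old vehicle library, and 0.11 ± 0.13 in old against young TSA. Old vehicle had 1 peak of 571 bp after the start printed above, while young vehicle and old TSA each had 1 peak before it and a longer one, of 1327 and 1124 bp, after or across it. Tags per kb of peak differed less, at 145.8 (young vehicle), 160.5 (young TSA), 136.6 (old vehicle) and 163.7 (old TSA), over called lengths of 1866, 1483, 571 and 1607 bp. H3K9/14ac at Zfp281 was 240, 390, 336 and 306 tags, so that old vehicle was the second highest in that mark, and relative tags lay between 0.13 and 0.33 in the 4 comparisons. Counting peaks in the gene body alone, the H3K27ac difference with TSA in old was 0.76 and that between vehicles -0.66, below 2-fold, since the peak before the start then falls outside.

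The other Zfp genes moved less in old mice. Of 18 genes marked in both old libraries, 11 had more relative tags with TSA (61.1%), beside 60.5% of all genes, but scaling by total tags turned this to 27.8% (all genes 39.5%). The median was 0.03, and 0.07 over all genes. Zfp281 was the only Zfp gene past 2-fold, beside 5.86% of all genes in either direction. With the gene body alone the gene past 2-fold was Zfp120 instead, at -1.005. Zfp64, which regulates the leukaemia gene Kmt2a in human cells, followed at 0.70 ± 0.15, with 337 tags (young vehicle), 314 (young TSA), 136 (old vehicle) and 313 (old TSA), and Zfp687 was next at 0.18 ± 0.09. Lowest were Zfp120 at -0.54 ± 0.15 (218, 189, 186 and 182 tags) and Zfp451, a SUMO ligase gene, at -0.32 ± 0.11 (543, 508, 354 and 402 tags). The 5 genes without a peak in old vehicle have no relative tags here.

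**Figure D3:**
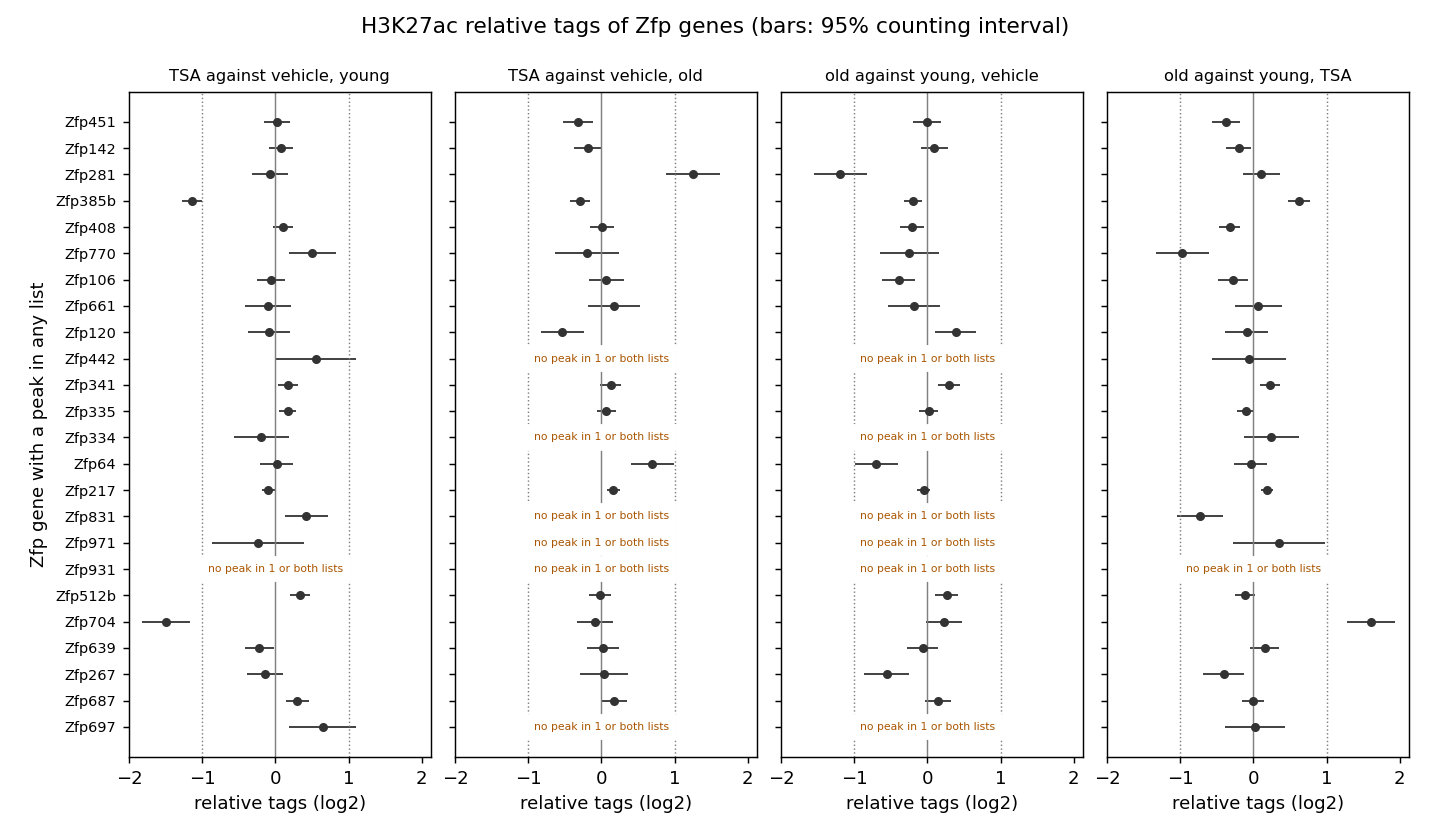
H3K27ac relative tags (log2, x axis) of the 24 Zfp genes with a peak in any list (rows) in the 4 comparisons (panels); bars are 95% counting intervals, dotted lines mark 2-fold, and genes without a peak in 1 or both lists are written out. Zfp704 and Zfp385b lie beyond 2-fold lower in young TSA, Zfp281 beyond it in both comparisons with old vehicle, and Zfp704 is higher in old than young TSA.

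Between ages in vehicle mice, 7 of 18 Zfp genes had more H3K27ac relative tags in old (38.9%), beside 34.1% of all genes, but scaling by total tags turned this to 61.1% (all genes 56.8%). The median was -0.06, against -0.13 over all genes. The share of Zfp genes with more relative tags also turned at settings where that of all genes did not. It was 60.0% of 15 genes in the upper 50% of peaks by tags (all genes 37.0%). With lists of equal length it was 55.6% of 18 genes (all genes 38.5%). Zfp281 was the 1 gene past 2-fold, beside 7.43% of all genes. In the upper 50% of peaks by tags Zfp106 also passed it, at -1.04 in place of -0.39. Next lowest were Zfp64 at -0.70 ± 0.15 and Zfp267 at -0.56 ± 0.16 (279, 233, 124 and 180 tags), and highest were Zfp120 at 0.39 ± 0.14, Zfp341 at 0.30 ± 0.08 and Zfp512b at 0.26 ± 0.08. Scaling by total tags adds 0.19 to every value of this comparison.

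Under TSA, 10 of 23 Zfp genes had more H3K27ac relative tags in old than in young (43.5%), beside 40.6% of all genes, with a median of -0.04 against -0.09. Zfp704, described above, was the 1 gene past 2-fold, beside 5.19% of all genes. Zfp385b passed it in the upper 50% of peaks, at 1.03 in place of 0.62, and Zfp770 with scaling by total tags, at -1.06. Zfp770 was lowest at -0.97 ± 0.19, with 136 tags (young vehicle), 178 (young TSA), 75 (old vehicle) and 93 (old TSA), so that both old libraries were below both young ones. Its H3K9/14ac did not share this order, at 223, 278, 294 and 201 tags. Zfp831 followed at -0.73 ± 0.16 and Zfp267 at -0.41 ± 0.14. The highest after Zfp704 were Zfp385b at 0.62 ± 0.07 and Zfp971 at 0.35 ± 0.32.

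In H3K9/14ac, 13 Zfp genes were marked in both libraries of each comparison, and Zfp442 and Zfp385b lay farthest from the rest in the 2 comparisons that use the young vehicle library. More relative tags with TSA were found at 6 genes in young (46.2%, all genes 51.8%) and at 4 in old (30.8%, all genes 45.9%). In old against young, 6 genes had more in vehicle (46.2%, all genes 49.8%) and 5 under TSA (38.5%, all genes 44.5%). With scaling by total tags the shares with more relative tags became 23.1% in young (all genes 42.5%) and 30.8% in old (all genes 50.4%) with TSA, and 23.1% in vehicle (all genes 41.0%) and 53.8% under TSA (all genes 53.9%) between ages. Past 2-fold was Zfp442 alone, at -1.43 ± 0.25 with TSA in young, beside 5.22% of all genes. Its 100 tags in young vehicle lay in a peak of 837 bp, and its 49 in young TSA in one of 392 bp, both over its start, with 119.5 and 125.0 tags per kb of peak. No Zfp gene passed 2-fold with TSA in old, between ages in vehicle or between ages under TSA, beside 4.9%, 7.56% and 5.05% of all genes. Besides Zfp385b, described above, Zfp661 passed it under 1 setting, at 1.04 in old against young TSA with the gene body alone, in place of 0.45. Highest with TSA was Zfp281, at 0.30 ± 0.12 in young and 0.33 ± 0.11 in old.

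Position along the chromosomes went with the presence of the mark. Groups of at least 3 Zfp genes less than 1000000 bp apart were formed after the values were seen. Of the 19 dispersed genes, 16 had H3K27ac in every list and 2 in none. Among 10 genes between 174598682 and 178078425 on chromosome 2, none had it in every list, 3 had it in some (Zfp831, Zfp971 and Zfp931) and 7 had it in no list: Zfp968, Zfp965, Zfp966, Zfp967, Zfp973, Zfp970 and Zfp972. The 4 genes between 150114407 and 150485063 on chromosome 2 were mixed, with Zfp120 marked in every list, Zfp442 in some and Zfp937 and Zfp345 in none. So were the 3 between 164891882 and 165388315, where Zfp335 was marked throughout, Zfp334 in some lists and Zfp663 in none.

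The sequence of the promoters went the same way. The median number of CpG dinucleotides in the 300 bases was 21 in the 17 genes with H3K27ac in every list and a known promoter, 10 in the 5 with H3K27ac in some, and 5 in the 12 without it, beside 15 over 17491 coding genes. The median GC content was 62.3%, 51.0%, 49.0% and 57.3% in the same order. Among the 12, 7 lie in the group on distal chromosome 2, where Zfp965, Zfp966, Zfp967, Zfp968 and Zfp973 have 5 CpG each. Zfp804a stood apart with 45 CpG. The GC box GGGCGG, searched on both strands, occurred in 12 of the 17 genes and in 2 of the 12, beside 49.2% of coding genes. The CCAAT box (CCAAT, both strands) was in 24 of the 34 Zfp genes, beside 42.3%, and the motif CCGGAAG, bound by ETS factors, in 13 of 34, beside 12.9%. The copies on distal chromosome 2 share sequence and account for part of both counts, so these genes are not independent. The same holds for the CpG and GC medians and the GC box count of the 12 genes without H3K27ac. CpG and GC content were not split by H3K27ac over all coding genes, so whether this link is particular to Zfp genes was not tested.

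Shared sequence was measured between promoters alone, so a share of 0 does not make a promoter unique in the genome. For each 300-base promoter, the share of its 36-base stretches that also occur in a promoter elsewhere in the genome was counted on both strands. It was 0 for 23 of the 34 genes, of which 17 had H3K27ac in every list, 2 in some and 4 in none. It was 50% or more for 10 genes, of which 0 had H3K27ac in every list, 3 in some and 7 in none. For Zfp966, Zfp967, Zfp968, Zfp970 and Zfp973 it was 100%, for Zfp965 95.5%, for Zfp971 67.2% and for Zfp931 69.8%. Between Zfp971 and Zfp965, whose printed promoters differ at 9 positions, only Zfp971 had peaks. Its H3K27ac peaks begin beyond the printed bases, at 178023350 in young vehicle. The authors' treatment of reads that match several places is not stated in the sources used here, and the part of shared sequence in the missing peaks was not tested. Zfp972, at a share of 0, had no peak, and its sequence outside the promoter was not compared.

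**Figure D4:**
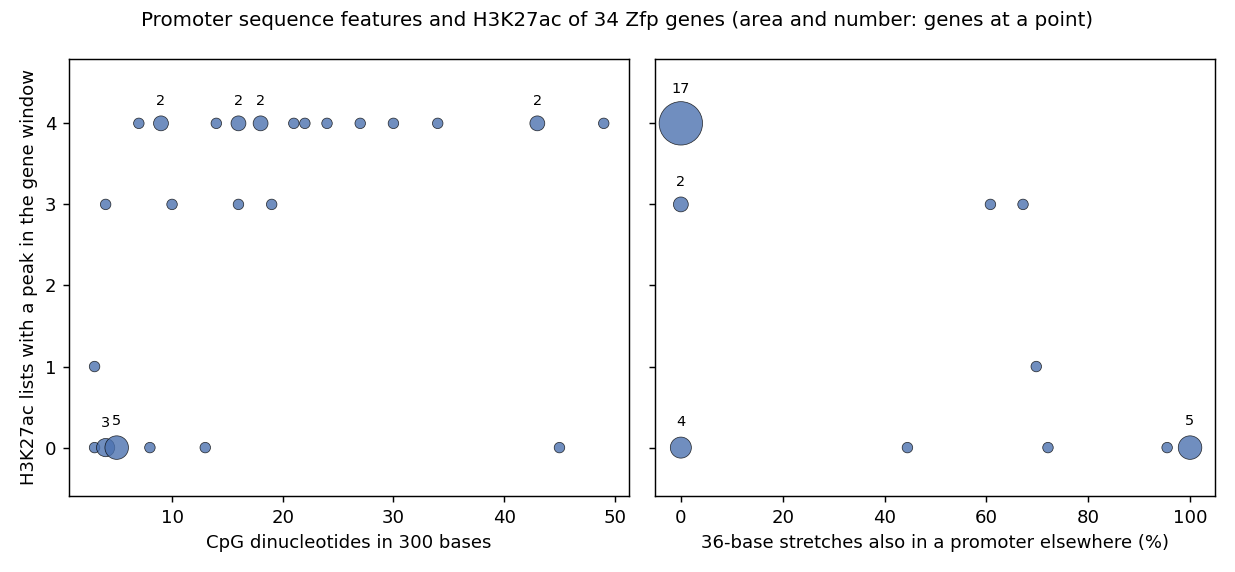
Number of H3K27ac lists with a peak in the gene window (y axis) against CpG dinucleotides in the 300-base promoter (left) and the percentage of its 36-base stretches that also occur in a promoter elsewhere (right) for 34 Zfp genes; area and number give the genes at a point, and the highest value is used for genes with several starts. All 17 genes with H3K27ac in every list have no such stretch, and 5 genes without H3K27ac lie at 100%.

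The partners of KRAB proteins and other C2H2 genes gave a comparison. Of 43 listed corepressor and heterochromatin genes, 8 lie in the H3K27ac stretch, and 6 of these were marked in every library, beside 50.2% of all genes. Those without H3K27ac were Setdb1, the methyltransferase that Trim28 recruits, and Dnmt3b, a DNA methyltransferase, although Dnmt3b had H3K9/14ac in all 4 libraries (207, 337, 371 and 318 tags). None of the listed genes passed 2-fold in either mark, beside 3.0% to 7.43% of all genes by comparison in H3K27ac and 4.9% to 7.56% in H3K9/14ac. Of the 26 genes matched by symbols such as Zbtb, Klf and Gli, between 18 and 21 were marked with H3K27ac, beside 51.1% to 56.1% of all genes. Only Gli2, an effector of Hedgehog signalling, passed 2-fold in H3K27ac, at 1.26 with TSA in old (all genes 5.86%). With so few genes, none or 1 past 2-fold is near the shares of all genes. That symbol rule also takes in Sp100, Sp110 and Sp140, which are not C2H2 genes.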

How the data were processed

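ChIP-seq peak lists of 8 immunoprecipitated libraries (1 per mark, age and treatment) were used, and the 4 input samples of the 12 in the series were not used. The submitters' processing notes name Bowtie 0.12.7, TopHat2 2.0.9, HTSeq 0.6.1p1, DESeq2, MACS2, HOMER and genome build GRCm38, without giving each a step. Per the file headers, each list was written by HOMER for 1 library, and the deposited value of a peak used here is its whole-number tag count, which is not normalized. The lists as used here break off in an incomplete last line, so complete lines were read and each mark was limited to the stretch that its 4 lists share (12.5% to 18.3% of the header's peak number). Sequencing depth per library is not stated in the sources used here.

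Genes came from a RefSeq table of GRCm38.p6, which holds 397 Zfp genes among 21896 coding genes. Tags of a peak that crosses a window's border were shared out by overlap. Python 3.11.15, NumPy 2.4.6, pandas 2.3.3, SciPy 1.17.1 and Matplotlib 3.10.9 were used, and the window and scaling functions were tested on simulated data. The members, gene lists and alternatives were chosen with earlier results of these data known. Values in every library are given for the 10 genes with the most H3K27ac tags per kb, those marked in 1 to 3 lists of a mark and those past 2-fold, and relative tags for the 3 highest and 3 lowest H3K27ac values of each comparison, with fewer for H3K9/14ac. Errors and intervals of relative tags cover the counting of tags only. Exact binomial intervals of shares take the genes as independent and do not cover differences between libraries.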

Additional observations from a re-analysis of the deposited data

Results flagged for a closer look

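Zfp217 had H3K27ac relative tags of opposite sign with TSA at the 2 ages, -0.094 in young and 0.164 in old, each with a counting interval clear of 0. With windows of 2000 bp either side of the start both signs turned, to 0.298 and -0.116, and with scaling by total tags both values were above 0, at 0.056 and 0.016. The difference between the ages was not tested, since each group has 1 library, and both values are far below 2-fold.

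Beyond the stretch that all 4 H3K9/14ac lists share, the 3 lists that reach further held a peak at 11 of 18 Zfp genes (young TSA), 10 (old vehicle) and 9 (old TSA). Of the 964 coding genes there, 63.3%, 61.3% and 58.7% had one. These counts fall outside the comparisons of that mark, for want of a young vehicle value.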

How the results depend on the processing

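Window limits, overlap, the peaks kept, the sharing out of tags and the scaling were varied 1 at a time, and lists of equal length were added after seeing the data. The counts of Zfp genes with a peak stayed within 1.5 times of the main count in every library under each setting that changes them. Among shares of genes with more relative tags, scaling by total tags moved H3K27ac with TSA in young from 52.2% to 78.3% of 23 genes (all genes 72.5%) and in old from 61.1% to 27.8% of 18 genes (all genes 39.5%). It shifts every H3K27ac value by 0.15 in young and by -0.15 in old. It also turned old against young vehicle from 38.9% to 61.1% (all genes 56.8%). Single relative tags left their counting interval in 29 values for the upper 50% of peaks, 21 for the gene body alone and 19 for scaling by total tags, and no value past 2-fold changed sign. Zfp704 lay between -1.50 and -1.34 with TSA in young, and Zfp385b between -1.59 and -0.83. H3K9/14ac of Zfp442 lay between -1.51 and -1.20. With 1 library per group no library can be left out, and no paired analysis was possible because the labels give no replicates.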

Other observations

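Some other C2H2 zinc finger genes passed 2-fold in H3K9/14ac. With TSA in young, 2 of 15 were past it upward and 1 downward (all genes 5.22%), and in old 2 upward and 1 downward of 14 (all genes 4.9%). In old against young, 2 of 15 were past it upward in vehicle (all genes 7.56%). Under TSA 1 of 15 was past it upward and 1 downward (all genes 5.05%). Gli2 had 154 H3K9/14ac tags (young vehicle), 619 (young TSA), 783 (old vehicle) and 277 (old TSA), with relative tags of 1.61 with TSA in young and -1.03 in old. Its H3K27ac tags were 612, 769, 414 and 1408 in the same order, so that old TSA was high in that mark only. Prdm11 had 69, 421, 258 and 275 H3K9/14ac tags, with young vehicle low. Its relative tags were 2.21 with TSA in young and 1.56 in old against young vehicle. In H3K27ac Prdm11 had 111, 180, 0 and 200 tags, without a peak in old vehicle. Sp5 had H3K9/14ac in the TSA libraries alone, with 124 tags in young and 38 in old, at -1.23 between them. Sp100, not a C2H2 gene, stood at -1.07 with TSA in young. Ikzf2, a lymphocyte and stem cell transcription factor, had 145, 152, 113 and 244 H3K9/14ac tags, and Zeb2, a factor of epithelial-mesenchymal transition, 878, 1136, 975 and 1548, both highest in the library labelled old TSA.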
